A study of Mus musculus with 8 samples.

Results

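Zscan4 and Tcstv are 2 multicopy gene families of the mouse that are read on this array by 4 of its 35556 probe sets. The members were all probe sets whose gene names include one beginning with Zscan4 or Tcstv. This rule used names only, but the families were chosen with earlier results of these data known. There were 3 Zscan4 probe sets and 1 Tcstv probe set, which names Tcstv3. RNA came from feeder-independent E14 mouse embryonic stem cells (ESCs) grown with leukaemia inhibitory factor. In the knockdown group the cells stably carried a lentiviral shRNA against Kdm2b and were taken at passages 27 to 30, and in the control group they stably carried a scrambled shRNA and were taken at passages 28 to 31. Each group held 4 replicates, each hybridised to 1 array. Both groups were infected with virus and selected with puromycin. A single shRNA was used for Kdm2b. The labels call the replicates of a group biologically independent and give them successive passage numbers, and whether they came from separate infections is not given in the sources used here. The p-values measure the spread between these samples.

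The Zscan4 genes encode SCAN-domain zinc finger proteins. They are known from the 2-cell embryo, when the embryonic genome is activated, and from a small, fluctuating minority of cultured ESCs that enters a 2-cell-like state in which telomeres lengthen. Tcstv genes (named for the 2-cell stage, variable group) belong to the same burst of transcription. The transcription factor DUX activates both families directly, and Dppa2 and Dppa4 act upstream of Dux. KDM2B, the protein whose mRNA the shRNA targets, binds non-methylated CpG islands through its CxxC zinc finger and carries a variant polycomb complex to them. The arrays hold RNA of whole cultures. A lower family signal in such a culture can come from fewer cells that express the family or from less RNA in each of them, and these cannot be told apart.

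The RefSeq table of the GRCm38.p6 assembly holds 11 genes of the families, of which 6 were named by a probe set. On chromosome 7 lie Zscan4a at 10794241-10799065, Zscan4b at 10900740-10905050, Zscan4c at 11005745-11010547, Zscan4d at 11161643-11166148 and Zscan4f at 11397915-11402318. Zscan4a is annotated as a transcribed pseudogene. All 3 Zscan4 probe sets carried the same 5 names (Zscan4a, b, c, d and f) and the same 7 transcript accessions, so none of them could be assigned to one copy and they are 3 readouts of the family as a whole rather than of different genes. Zscan4e, Zscan4-ps1, Zscan4-ps2 and Zscan4-ps3, all annotated as pseudogenes, and Tcstv1 on chromosome 13 at 119893387-119894785 were named by no probe set. Tcstv3 lies on chromosome 13 at 120316862-120318261 and is the single name of its probe set.

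The copies resemble each other upstream of their transcription starts as well. RefSeq windows of 300 bases, reaching from 250 bases before the start to 50 after it, were given for 4 of the 5 named Zscan4 genes. Each holds a version of the stretch of 156 bases printed here, 5′ to 3′ on the strand of the gene, which is shown because it is alike in all 4 promoters. It was cut from a fixed distance before the letters GATTCAA to the end of the next TATAAA. Only this stretch was compared between the copies. Capitals mark the TATA box letters TATAAA at its end and, where present, TGATTCAA, the first 8 letters of the sequence that the transcription factor DUX is known to bind.
Zscan4b: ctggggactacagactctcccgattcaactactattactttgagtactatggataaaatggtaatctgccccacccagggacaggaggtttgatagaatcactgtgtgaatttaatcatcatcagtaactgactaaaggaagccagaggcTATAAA
Zscan4c: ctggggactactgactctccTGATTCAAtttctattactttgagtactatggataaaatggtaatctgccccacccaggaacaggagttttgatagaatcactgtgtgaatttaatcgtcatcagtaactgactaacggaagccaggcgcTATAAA
Zscan4d: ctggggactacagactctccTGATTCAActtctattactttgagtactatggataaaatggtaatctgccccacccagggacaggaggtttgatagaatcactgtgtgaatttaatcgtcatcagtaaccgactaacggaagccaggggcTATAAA
Zscan4f: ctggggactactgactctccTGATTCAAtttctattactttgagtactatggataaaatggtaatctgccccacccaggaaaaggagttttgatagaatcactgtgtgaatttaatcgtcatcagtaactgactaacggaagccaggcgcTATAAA
The stretches lie at chr7:10905076-10905231 on the minus strand, chr7:11005541-11005696 on the plus strand, chr7:11166208-11166363 on the minus strand and chr7:11397734-11397889 on the plus strand of GRCm38.p6. Zscan4c and Zscan4f differed at 1 of the 156 bases (99.4% identity), and the most distant pair, Zscan4b and Zscan4f, at 11 (92.9%). TGATTCAA was found 184 bases before the start of Zscan4c, 195 before that of Zscan4d and 161 before that of Zscan4f, and not in the window of Zscan4b. These letters occur on either strand in 0.581% of 32851 promoter windows of the same length, and on the strand of the gene in 0.286%. TATAAA, present 31 bases before the start of Zscan4b and Zscan4f, 54 before that of Zscan4c and 65 before that of Zscan4d, occurs on either strand in 13.6% of windows. The full DUX sequence of 11 letters was searched for as well. It was on neither strand of the windows of Zscan4b, Zscan4c, Zscan4d and Zscan4f, and it occurs in 0.00913% of all windows. The matches to DUX are thus partial. A match is a description of the letters and not of binding. The windows were poor in CG dinucleotides, with 1 in Zscan4b, 4 in Zscan4c, 3 in Zscan4d and 3 in Zscan4f against a median of 7 over all windows, and 14.1% to 38% of all windows held as few.

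The arrays themselves were alike. Their median RMA signals, which are normalised log2 intensities, lay between 8.47 and 8.53 and their lower quartiles between 6.99 and 7.06. Kdm2b, the targeted gene, measured 8.68, 9.12, 9.45 and 8.91 in the knockdown replicates and 10.74, 11.10, 11.34 and 11.20 in the controls. It fell by 2.05 on the log2 scale (SE 0.18, limma adjusted p = 0.000891), a fall of 75.9%, and every knockdown array was below every control array. Of the 20 probe sets of 19 pluripotency factors, 0 were called lower and 1, for the AKT cofactor Tcl1, was called higher (log2 difference 1.19, adjusted p = 0.00346). At an unadjusted limma p under 0.05, 5 of the 20 were lower and 8 higher. Their median log2 difference was 0.17, against 0.03 over all probe sets, of which 1.59% were called lower and 1.15% higher. The mean signal of this list was 12.4 to 12.5 on knockdown and on control arrays alike, far above the array medians.

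The Zscan4 signal was lower in the Kdm2b knockdown by 97.5%, 97.4% and 97.4% in its 3 probe sets. The first Zscan4 probe set measured 7.56, 7.90, 7.86 and 8.40 on the knockdown arrays and 13.47, 13.20, 12.66 and 13.63 on the control arrays. The second measured 7.82, 8.15, 8.16 and 8.67 against 13.71, 13.46, 12.91 and 13.84. The third, the brightest, measured 8.11, 8.58, 8.61 and 9.14 against 14.12, 13.87, 13.42 and 14.19. The groups did not overlap in any of the 3: the lowest control array exceeded the highest knockdown array by 4.26, 4.24 and 4.28 on the log2 scale. Control signals stood 4.19 to 5.70 above the median of their array, whereas knockdown signals lay between 0.96 below and 0.64 above it.

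**Figure D1:**
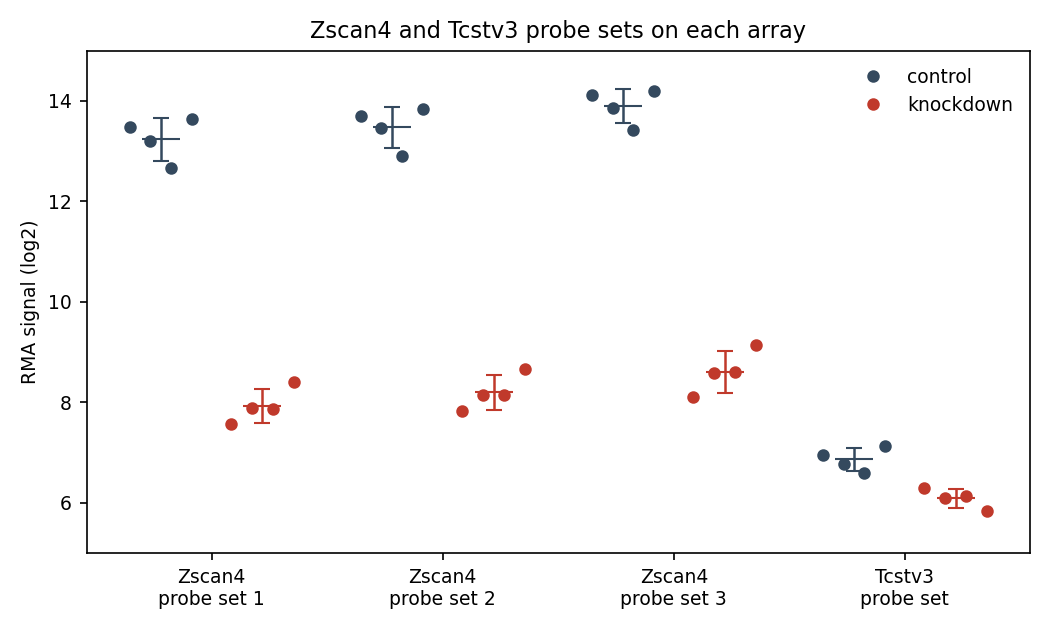
RMA signal (log2) of the 3 Zscan4 probe sets and the Tcstv3 probe set on each of the 8 arrays. Each point is 1 array, in replicate order within a group, horizontal bars are group means and vertical bars are SD (n = 4). The Zscan4 groups are separated by more than 4 log2 units, while the Tcstv3 groups lie 0.30 apart at their closest.

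As a mean over replicates, the first Zscan4 probe set went from 13.24 ± 0.43 (SD, n = 4) in controls to 7.93 ± 0.35 (SD, n = 4) in the knockdown. This is a log2 difference of -5.31 (SE 0.23, 95% interval -5.84 to -4.78, limma adjusted p = 4.56e-05), or 39.7-fold lower with an interval of 27.5 to 57.4. The other 2 readouts differed by -5.28 (SE 0.23) and -5.29 (SE 0.23) with the same adjusted p, or 38.8-fold and 39.1-fold lower. The 3 values lie within 0.03 of each other, and since the probe sets share their transcript assignments they are not 3 independent observations. On the control arrays 94.1% to 99.3% of all probe sets were dimmer than these, and array signals are compressed near their ceiling, so the folds describe the signal and not counted transcripts.

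Tcstv3 was lower too, by far less. Its probe set measured 6.30, 6.10, 6.14 and 5.84 on the knockdown arrays and 6.95, 6.78, 6.60 and 7.13 on the control arrays. The groups did not overlap, but the lowest control lay only 0.30 above the highest knockdown array. The means were 6.09 ± 0.19 (SD, n = 4) and 6.87 ± 0.23 (SD, n = 4), a log2 difference of -0.77 (SE 0.13, 95% interval -1.07 to -0.47, limma adjusted p = 0.0127) or 1.71-fold lower (1.39 to 2.10). This probe set was dim: all 4 knockdown arrays and 3 of the 4 control arrays put it below the lower quartile of the signals on that array. Signals at the dim end hold a larger share of background, which compresses differences, and these files carry no detection call.

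Thus 4 of 4 family probe sets were called lower at an adjusted p under 0.05 and a change of at least 1.5-fold, where 567 of all 35556 probe sets (1.59%) were called lower. None of the 4 was called higher by limma, and none had an unadjusted p under 0.05 in that direction, where 1.15% of all probe sets were called higher. All 4 also had every knockdown array below every control array, as did 8.32% of all probe sets. At a 2-fold threshold the 3 Zscan4 probe sets remained and Tcstv3 did not (0.568% of all probe sets called). Among the 1621 probe sets that, like those of Zscan4, name several genes, 3.58% were called lower and 2.28% higher. Since the families were chosen with earlier results of these data known, neither these counts nor the ranks that follow are independent evidence. By size of fall the Zscan4 probe sets ranked 3, 4 and 5 of all probe sets and Tcstv3 ranked 556. The only deeper falls were those of Gm5662 (log2 difference -6.34, SE 0.34) and of a probe set naming Gm4027 and BB287469 (-5.80, SE 0.30), which also belong to the 2-cell-like genes and are described with them.

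**Figure D2:**
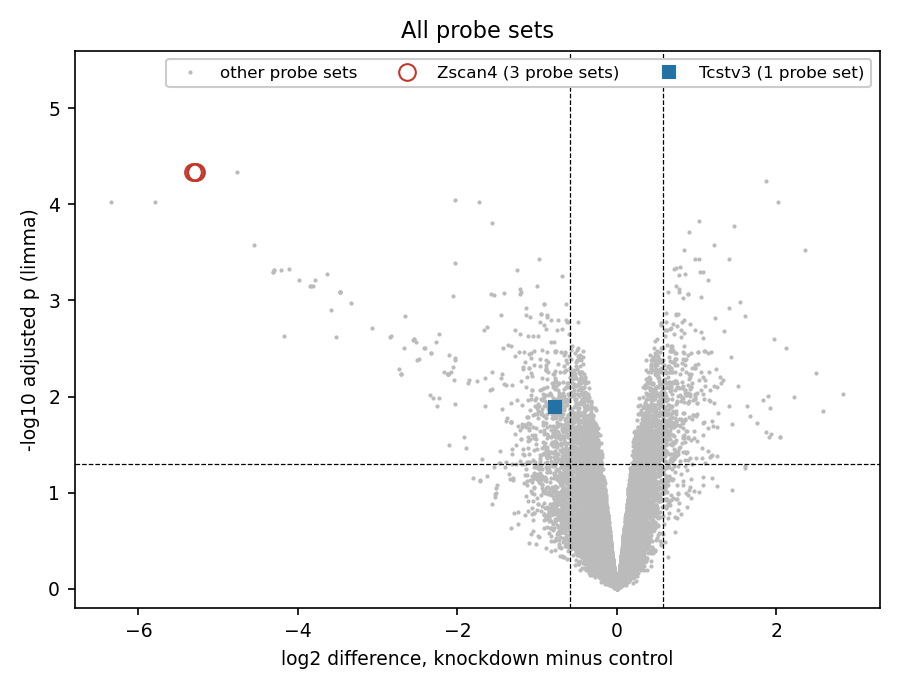
Log2 difference, knockdown minus control (x axis), against -log10 of the limma adjusted p (y axis) for all 35556 probe sets. Dashed lines mark an adjusted p of 0.05 and a change of 1.5-fold in either direction. The 3 Zscan4 probe sets overlap at about -5.3, among the lowest adjusted p values, and Tcstv3 lies at -0.77 within the crowd of modest falls.

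The smaller response of the Tcstv3 signal was tested as a difference in its own right. The signal of the third Zscan4 probe set minus that of Tcstv3 on the same array was 1.81, 2.48, 2.47 and 3.31 in the knockdown replicates and 7.17, 7.09, 6.82 and 7.06 in the controls. The mean of this difference was 2.52 ± 0.61 (SD, n = 4) in the knockdown and 7.03 ± 0.15 (SD, n = 4) in the control. The Zscan4 signal thus fell by 4.52 log2 units more than the Tcstv3 signal (two-sided exact permutation test over arrays, p = 0.0286, the smallest that 4 arrays against 4 allow). With the arrays paired by replicate number the difference was the same, -4.52. An exact sign-flip permutation gave p = 0.125, the smallest that 4 pairs allow. Since no set of 4 pairs could give a lower value, the paired test cannot decide whether the difference holds with pairing. The part that the dimness of the Tcstv3 probe set plays in the smaller fall of its signal was not tested.

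Within a group, the replicates spread in ways that the knockdown contrast does not use. In the controls both families were lowest in replicate 3 and highest in replicate 4. Relative to the control mean, the averaged Zscan4 signal was 0.23, -0.03, -0.54 and 0.35 in replicates 1 to 4, and Tcstv3 was 0.09, -0.09, -0.26 and 0.27. In the knockdown the order turned: Zscan4 deviated by -0.42, -0.04, -0.04 and 0.49, and Tcstv3 by 0.20, 0.01, 0.05 and -0.26, so that the array with most residual Zscan4 signal had least Tcstv3 signal. Kdm2b deviated by -0.36, 0.08, 0.41 and -0.13 in the knockdown, and the array with the highest residual Kdm2b signal, replicate 3, had neither the highest nor the lowest Zscan4 signal. Passage number and replicate number run together within each group, and with 4 arrays a group these orders are descriptions only.

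**Figure D3:**
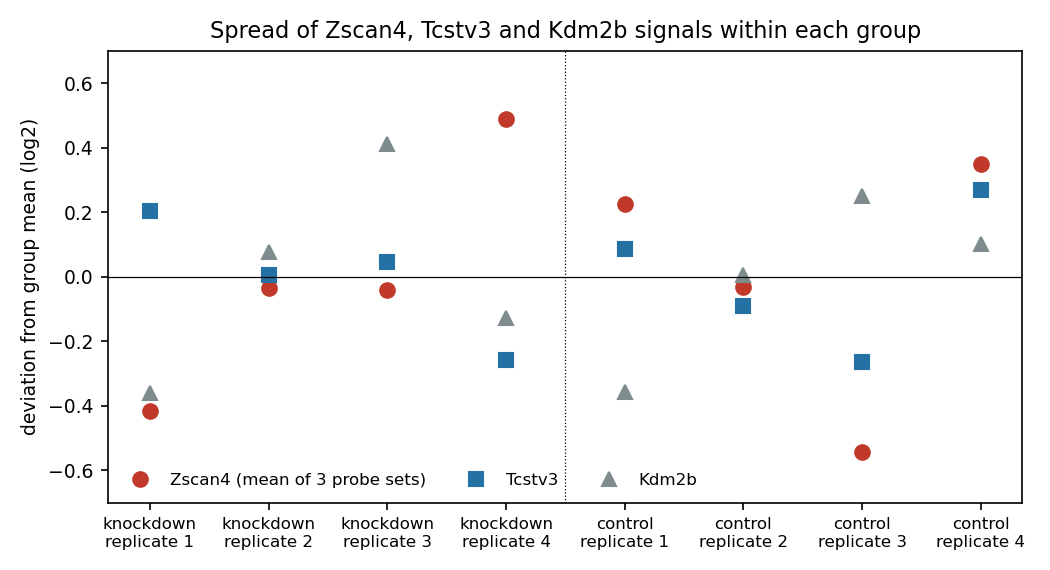
Deviation from the mean of the group (log2) on each array for the mean of the 3 Zscan4 probe sets (circles), Tcstv3 (squares) and Kdm2b (triangles). In the controls Zscan4 and Tcstv3 both dip in replicate 3 and peak in replicate 4, and in knockdown replicate 4 they part, with Zscan4 at 0.49 and Tcstv3 at -0.26.

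The fall of the Zscan4 signal was not shared by the measured genes that flank the cluster. The 5 nearest named genes on one side, Zik1, Vmn1r69, Vmn1r70, Nlrp4b and Vmn1r71, and the 5 on the other, Vmn1r72 to Vmn1r76, differed by -0.09 to 0.18 on the log2 scale, and limma called 0 of the 10 (1 had an unadjusted p under 0.05, Nlrp4b, at 0.18). Most of these encode receptors of the vomeronasal organ, and their signals were dim in both groups. The exception was Zik1, a zinc finger gene with a clear signal, at 9.45 in the knockdown and 9.42 in the control (log2 difference 0.04, SE 0.11). Inside the cluster the microRNA gene Mir297-1 differed by -0.02, with a signal of 3.84 against 3.86, near the bottom of the array.

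On chromosome 13 the picture differed, since the measured genes lying between Tcstv1 and Tcstv3 were lower as well. AF067061, itself a 2-cell-like gene, measured 7.16, 7.44, 7.33 and 7.0 in the knockdown and 8.39, 8.23, 7.96 and 8.62 in the control, with no overlap. Its log2 difference was -1.06 (SE 0.15, limma adjusted p = 0.00610). BC147527 measured 7.68, 7.71, 7.52 and 7.52 against 8.71, 8.51, 8.03 and 8.89, a difference of -0.93 (SE 0.17, adjusted p = 0.0155). Both had their lowest control value in replicate 3 and their highest in replicate 4, as did Tcstv3, and the BC147527 call was lost without knockdown replicate 4 (adjusted p = 0.0508). Outside the interval, limma called 0 of the 5 nearest genes on the one side that has probe sets (1 had an unadjusted p under 0.05, Nim1k). AF067063 differed by -0.08, Zfp131 by -0.23, the kinase gene Nim1k by 0.17, the cholesterol synthesis gene Hmgcs1 by 0.14 and the chemokine gene Ccl28 by -0.08. The promoter window of AF067061 held TGATTCAA 179 bases before its start and that of BC147527 did not, and each held 2 CG dinucleotides. Neither window held the full DUX sequence of 11 letters on either strand.

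**Figure D4:**
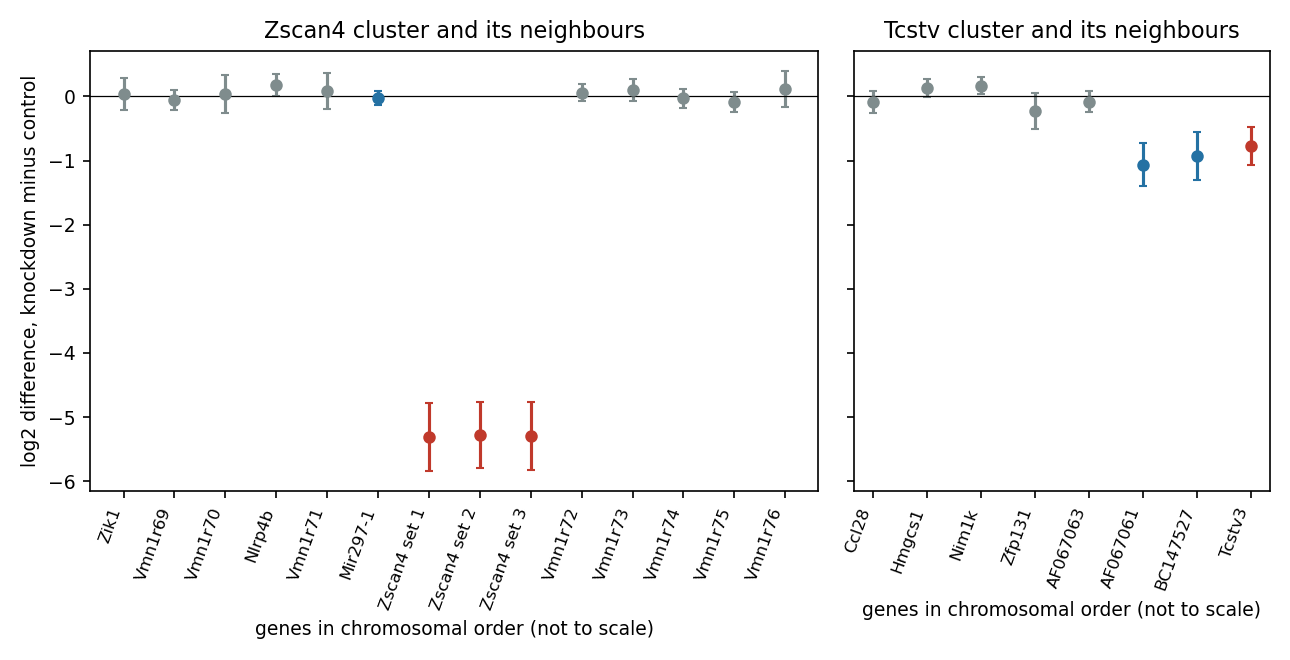
Log2 difference, knockdown minus control, with its 95% interval, for the families (red), genes within the clusters (blue) and the nearest named genes outside them (grey), in chromosomal order and not to scale. The Zscan4 probe sets, which cannot be placed at single copies, are drawn side by side. The outside genes of both clusters sit near 0, and AF067061 and BC147527 lie at the level of Tcstv3.

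Other genes of the 2-cell-like state were lower as well. This list was chosen with earlier results of these data known, so its direction is no independent evidence. Of its 39 genes, 19 had probe sets of their own, and 14 of these 20 probe sets were called lower, 0 higher and 6 neither, with a median log2 difference of -1.48 against 0.03 over all probe sets. Of all probe sets, 1.59% were called lower and 1.15% higher. limma gave 0 of the 20 an unadjusted p under 0.05 in the higher direction. The largest falls were those of Gm5662, Tdpoz3 (log2 difference -3.59, SE 0.33), a gene of the TRAF and POZ domain group, Pramel19 (-3.52, SE 0.38), a Prame-like gene, and Usp17la (-2.83, SE 0.30), a deubiquitinase gene. Zfp352, a zinc finger gene of the early embryo, fell by 1.75 (SE 0.25), and the difference for Arg2, the mitochondrial arginase, was -2.11 (SE 0.25). The 6 not called were a second Tdpoz2 probe set (-0.41), Pramel17 (-0.66), Spz1 (-0.24), AU015228 (-0.12), Zfp750 (-0.06) and Tdpoz1 (-0.03). A further 38 probe sets of the list name several genes, as those of Zscan4 do, and 21 of them were called lower and 0 higher, with a median of -0.81 and a range of -5.80 to 0.01. Some of the 38 carry identical values and are not independent. The smallest p of the 38 belonged to a probe set naming 9 genes, Gm4340 among them (-4.77, SE 0.20, adjusted p = 4.56e-05). For comparison, 3.58% of all probe sets with several names were called lower and 2.28% higher.

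The spread between controls was also common to this list. Averaged over its 14 called probe sets, the signal was 9.49, 8.95, 8.74 and 9.98 in control replicates 1 to 4 and 6.94, 6.98, 7.05 and 7.08 in the knockdown. The lowest control value fell on replicate 3 for 10 of the 14 and on replicate 2 for the other 4, so the array lowest for Zscan4 was the one most often lowest for these genes. The knockdown arrays differed among themselves by less than the controls did. These probe sets were picked as called lower, and their knockdown means lay near the lower quartiles of those arrays (6.99 to 7.04). Background compresses differences at such signals, and its part in the small knockdown spread was not tested.

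Among regulators of Zscan4 or of the 2-cell-like state, 4 of 37 probe sets (31 genes measured of 33) were called lower, 2 higher and 31 neither, with a median of -0.09. Of all probe sets, 1.59% were called lower and 1.15% higher. At an unadjusted limma p under 0.05, 12 of the 37 were lower and 2 higher. The 4 lower calls were both probe sets of Dppa4 (log2 differences -0.96, SE 0.10, adjusted p = 0.00168, and -1.10, SE 0.15, adjusted p = 0.00505) and both of Dppa2 (-0.68, SE 0.12, adjusted p = 0.0127, and -1.10, SE 0.24, adjusted p = 0.0282), which encode a pair of chromatin proteins that bind each other. The last of these 4 was not called without any 1 of the control replicates or without knockdown replicate 2 or 4 (adjusted p up to 0.0835). Tbx3, a T-box transcription factor, rose by 0.82 (SE 0.15, adjusted p = 0.0180) and Prdm14, a factor of pluripotency and the germ line, by 0.59 (SE 0.12, adjusted p = 0.0226). Neither rise was called without control replicate 2 or 4 or knockdown replicate 2 or 4, and that of Prdm14 also not without control replicate 3 or knockdown replicate 1. The 3 probe sets that name Duxf3, the Dux gene, together with Gm9919 differed by -0.32 to -0.29, and limma called 0 of them (3 had an unadjusted p under 0.05).

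Genes related to Zscan4 in function or structure were for the most part not called. Of 30 probe sets for telomere maintenance and recombination, 0 were called lower (8 had an unadjusted p under 0.05 in that direction), 2 higher and 28 neither, with a median of -0.03. The 2 were Dmc1 (log2 difference 0.61, SE 0.08), the meiotic recombinase, and Smc1b (1.21, SE 0.20), the meiotic cohesin subunit. Of all probe sets, 1.59% were called lower and 1.15% higher. The Dmc1 call was lost without control replicate 2 or knockdown replicate 1, since it lay just above 1.5-fold. The lower values with the smallest p were Nop10 (-0.31) and Nhp2 (-0.38), both of the telomerase ribonucleoprotein and short of 1.5-fold. Of 34 probe sets for other zinc finger genes with a SCAN domain, limma called 0 in either direction, with a median of 0.01, while 8 were lower and 7 higher at an unadjusted p under 0.05. Zscan10, a pluripotency factor of this class, differed by -0.45 (adjusted p = 0.0488), Zkscan2 by 0.34 (adjusted p = 0.0308), Zscan26 by 0.26 (adjusted p = 0.0368) and Zkscan7 by 0.44 (adjusted p = 0.0706), against -5.31 to -5.28 for Zscan4.

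**Figure D5:**
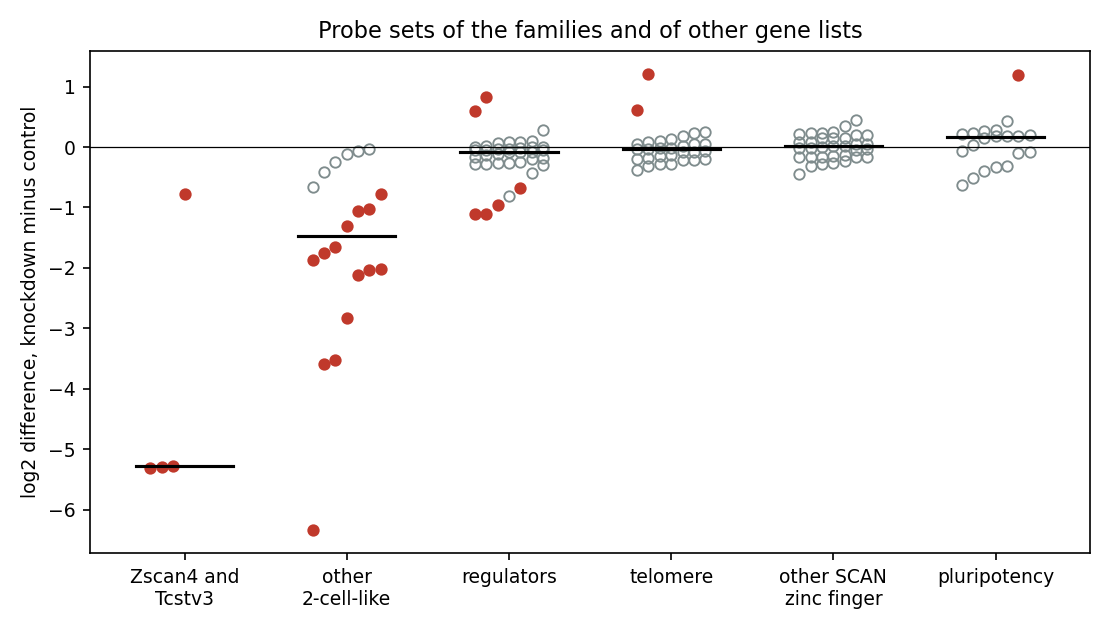
Log2 difference, knockdown minus control, of each single-gene probe set in 5 lists and of the 4 family probe sets. Filled red points were called, open grey points were not, and black bars are medians. Apart from Gm5662 at -6.34, the called falls of the 2-cell-like list lie between -3.59 and -0.78, while the telomere and SCAN zinc finger lists centre on 0.

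Some markers of other cells that an ESC culture could hold were called, where limma called 1.59% of all probe sets lower and 1.15% higher. The primitive endoderm list leaned higher, with a median log2 difference of 0.22 against 0.03 over all probe sets. Of 12 fibroblast probe sets limma called 0 lower (at an unadjusted p under 0.05, 1 was lower and 3 higher) and 1 higher, the surface glycoprotein gene Thy1 (log2 difference 0.72, adjusted p = 0.000475), and the list mean was 8.04 to 8.25 on knockdown and 7.96 to 8.27 on control arrays. Of 12 primitive endoderm probe sets it called 0 lower (at an unadjusted p under 0.05, 1 was lower and 6 higher) and 1 higher, Hnf4a, a nuclear receptor of visceral endoderm (0.91, adjusted p = 0.000196), with list means of 8.64 to 8.94 and 8.54 to 8.72. Of 12 trophoblast probe sets 1 was called lower, the keratin gene Krt8 (-1.24, adjusted p = 0.0204), and 1 higher, Plet1 (1.05, adjusted p = 0.00853), with list means of 8.89 to 9.28 and 9.02 to 9.49. The trophoblast median was -0.13, and at an unadjusted limma p under 0.05, 2 were lower and 1 higher. The Krt8 call was lost without control replicate 4 or without knockdown replicate 2 or 4. The part of these cells in the family results was not tested.

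Finally, single-gene probe sets were ranked by how closely they tracked each family over the 8 arrays, as a description without a test over 19937 genes. By mean absolute difference from the Zscan4 profile, after centring each on its controls, the closest were Gm5662 (0.644 log2 units), Gm7982 (0.649) and Tdpoz3 (1.04). Gm7982 differed between the groups by -4.30 (SE 0.32, adjusted p = 0.000479). For Tcstv3 the closest were the transporter gene Abcb5 (0.050; log2 difference -0.77, SE 0.11), Pdlim3 (0.126; -0.79) and Spopfm2 (0.131; -0.89), a POZ-domain gene. The Pdlim3 call was lost without control replicate 3 (adjusted p = 0.0532).

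Ranked by correlation of the deviations from the group means, a different set led. For Zscan4 these were Kdm1a (r = 0.978), the histone demethylase LSD1 and one of the listed regulators, the nuclease scaffold gene Slx4 (r = 0.971) and Hmmr (r = 0.961), a gene of the mitotic spindle. Their own signals scarcely moved, with log2 differences of -0.03, 0.05 and 0.10 and, for Kdm1a, deviations with an SD of 0.048. For Tcstv3 the highest were Vmn1r227 (r = 0.987), Gm16223 (r = 0.956) and Abcb5 (r = 0.941). The points are the same 8 arrays and share whatever sets each array apart, and the highest of 21788 correlations over so few arrays is large by selection.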

How the data were processed

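RNA from 4 knockdown and 4 control cultures was measured on Affymetrix Mouse Gene 1.0 ST arrays. The authors normalised the probe intensities by RMA with oligo 1.18.1, and the deposited values are log2 signals per probe set, with no detection calls. For the genome build and annotation behind them, the answer is not given in the sources used here. Probe sets were named from the platform annotation held by GEO, and symbols were updated through Entrez identifiers with the RefSeq table of GRCm38.p6. Of 35556 probe sets 23410 had a name, 21789 of them 1 gene and 1621 several. Promoter windows came from RefSeq (GRCm38.p6). Windows for Tcstv1 and Tcstv3 were not among those given.

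All probe sets were fitted with limma 3.58.1 (lmFit and eBayes, R 4.3.3) without further scaling or filter, knockdown against control, and p-values were adjusted over the whole table by Benjamini-Hochberg. A probe set was called at an adjusted p under 0.05 and a change of at least 1.5-fold, the thresholds in the methods of the study, which applied them per gene. The fit was tested on simulated data. Single values were compared by exact permutation over arrays (scipy 1.17.1). The number of arrays limits the precision.

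The genes named are the family probe sets, Kdm2b, the neighbours of both clusters (5 a side), the 3 genes most like each family by each measure, and, of each list, up to 4 members with the smallest p and any called where a direction had 5 or fewer calls. The 2-cell-like genes named beyond these (Pramel19, Usp17la, Zfp352, Arg2 and those not called) were chosen after their values were seen. Members and lists were chosen with earlier results of these data known.

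The labels say that the samples were collected in parallel and number the replicates 1 to 4 in both groups. Deviations of same-numbered arrays correlated at 0.118 to 0.355 and those of different numbers at -0.231 to 0.0747. A fit with the replicate as a block, which pairs arrays of the same number, was therefore run as an alternative. The main fit had no block, and limma values are from it unless another fit is named. The other alternatives were leaving out each array, passages 28 to 30 with the passage as a block, trended robust priors and array weights. Median centring, quantile normalisation and leaving out the dimmest 25% of probe sets were also run. A last alternative kept only probe sets with no name from outside the families, which removed none of the 4 family probe sets.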

Additional observations from a re-analysis of the deposited data

How the results depend on the processing

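The 3 Zscan4 probe sets and Tcstv3 kept their direction and their call in every alternative that held them. The Zscan4 log2 differences ranged from -5.51 to -5.03 over 15 alternatives, with limma adjusted p of at most 0.0138 (passages 28 to 30). Tcstv3 ranged from -0.86 to -0.68 over 14, with adjusted p of 0.00284 to 0.0450, the highest without 1 array, and had no value where the dimmest 25% of probe sets was left out, since it lies among them (3 family probe sets called there). With the replicate block the adjusted p were 0.00156, 0.00156, 0.00181 and 0.0278, and no family call changed.

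The larger fall of Zscan4 than of Tcstv3 was -4.52 with the replicate block too (exact p = 0.125, the smallest that 4 pairs allow) and -4.78 to -4.28 when each array was left out (p = 0.0571, the smallest that 3 arrays against 4 allow), so these p-values say nothing about stability. In the same replicate block fit, primitive endoderm markers had 1 lower call (Dab2) and trophoblast markers 2 (Krt8 and Krt18), against 0 and 1. Without the dimmest 25%, primitive endoderm markers also had 1 lower call. Dab2 (log2 difference -0.95) was called lower with array weights and quantile normalisation too, and Krt18 (-0.86) with array weights. A second, dimmer Dab2 probe set differed by 0.08 in the main fit and was not called there. Leaving out each array gave 0 to 2 lower calls for pluripotency factors (2 without knockdown replicate 1), 0 to 1 for primitive endoderm markers (1 without control replicate 2) and 0 to 1 for trophoblast markers, and 0 to 2 higher calls for regulators, 1 to 2 for telomere genes and 1 to 2 for fibroblast markers (2 without control replicate 1). The cause of these moves was not tested.

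Of 53 called probe sets outside the families that were followed through the alternatives, 31 were called in all that held them, 20 were not called with passages 28 to 30 (3 arrays a group), 9 not without some 1 array, 1 not with array weights, 1 not with median centring, and 0 were lost with the replicate block.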
